A study of Mus musculus with 4 samples.

Results

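Interleukins are secreted signals between immune cells, and the TNF family comprises mostly membrane-bound ligands with the receptors that bind them. The genes described here are the protein-coding genes of both families by name: those whose symbol starts with Il and a number, with Tnfrsf (TNF receptor superfamily) or with Tnfsf (TNF ligand superfamily), and Tnf itself, without Il6st and Il34. By this rule 77 members were found among 23475 genes, of which 48 encode receptors, 26 encode ligands and 3 encode the IL-1 receptor antagonist Il1rn, the IL-18 binding protein Il18bp and the amino acid oxidase Il4i1. The same naming rule fits 115 protein-coding genes of the GENCODE M21 annotation, and the 38 others, among them Il2, Il7 and Il10, were not analysed here. Gene expression was measured by mRNA sequencing of astrocytes isolated from mouse cerebral cortex at postnatal day 5. The 4 libraries form 2 groups of 2. The series text names the genotypes PD1fl/fl, mice with a floxed gene for the immune checkpoint receptor PD-1 (Pdcd1), and PD1cKO-Cx3, a conditional PD-1 knockout; these correspond by name to the libraries labelled WT and KO. The sources used here do not spell out Cx3, the Cre line or the deleted exons, nor do they say if a library came from one animal or a pool.

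In the brain many interleukin and TNF receptors are found on microglia, the resident macrophages, while a few are known mainly from neural cells. Interleukin receptors are built from a private chain and a chain shared between cytokines, and most signal through JAK kinases and STAT factors; the IL-1 receptors instead use MyD88 and IRAK kinases. TNF receptors signal through TRAF adaptors to NF-kappaB, and those with a death domain can also start caspase-dependent cell death.

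Counts per library summed to between 14224519 and 16961160, and the members took between 20211 and 26421 of them. All 10 astrocyte markers were counted, and they summed to 6867 and 6162 CPM in the KO libraries and to 6941 and 6520 CPM in WT (CPM, counts scaled to a common library size). The 17 microglia and macrophage markers, none of them at 0, summed to 5163 and 4250 CPM in KO and to 967 and 1384 CPM in WT, and among them Csf1r was at 1142 and 874 CPM in KO and 249 and 290 CPM in WT. The 5 markers of border macrophages summed to 165 and 68.9 CPM in KO and to 19.6 and 22.9 CPM in WT, and the 10 endothelial markers to 567 and 285 CPM in KO and to 175 and 67.5 CPM in WT. Blood markers summed to 75.4 and 51.1 CPM in KO and to 20.6 and 20.4 CPM in WT, and pericyte and fibroblast markers to 874 and 448 CPM in KO and to 366 and 387 CPM in WT. Of 12 markers of T, B and NK cells 6 had no listed count, among them Cd3e and Cd8a, and the other 6 summed to 11.4 and 12.4 CPM in KO and to 5.04 and 9.11 CPM in WT. Both tested ones were above 0 in log2 fold change. Of these, Cd4 had 16 and 18 counts in KO and 0 in both WT libraries (edgeR, unadjusted p = 0.0216). Cd4 passed the filter on low counts through KO alone, which fixes its direction. Of 7 neutrophil markers 2 had no listed count. The Y-linked gene Ddx3y was at 152 CPM in KO replicate 2, which had 0 counts of Xist, while the other 3 libraries had 0 counts of Ddx3y. By these genes the KO libraries differ in sex, and the part of sex in the results below was not tested. Pdcd1 had 20 counts in KO replicate 2, at most 4 in KO replicate 1 and 0 in both WT libraries, so it does not check the labels, and the groups are named by their labels throughout. More cells of a type and more RNA per cell cannot be told apart in such libraries, and the part of transcripts of these other cell types in the results below was not tested.

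Of the 77 members 55 passed the filter on low counts and were tested. None passed the threshold of an adjusted p of 0.05 (edgeR quasi-likelihood test), where 3 of 17696 genes, or 0.017%, passed. At an unadjusted p under 0.05, 13 members were higher in KO and 0 were lower, against 5.88% of all tested genes higher and 2.41% lower. Of the 13, 4 had passed the filter through the KO libraries alone, which fixes their direction (Il1b, Il1rapl2, Il1rn and Tnfrsf11a). The 13 became 3 without KO replicate 1 and 21 without WT replicate 1. DESeq2 called 4 members higher, Il21r, Il16, Tnfrsf1b and Tnfrsf11a, among 1.78% of genes so called, and 0 lower, where it called 0.356% of genes. The limma-voom fit called 0 members in either direction, where it called 0.141% of genes higher and 0.017% lower. In 29 of the 55 tested members both KO libraries lay above both WT libraries, where 21.2% of all tested genes were separated that way. Of these 29, 7 had passed the filter through KO alone and 22 through both groups. In 4 both lay below, where 18.4% of all tested genes did. The log2 fold change was above 0 in 39 members, against 50.0% of all tested genes, at least 1 in 26, against 9.93%, and at most -1 in 3, against 5.79%. The median log2 fold change was 0.88 over the tested members and 0.00 over all tested genes. Over the 48 members that passed the filter through both groups the median was 0.48. The 2 roles differed in these counts: 24 of 38 tested receptors were separated upwards, members that passed through KO alone included, with a median of 1.28, and 4 of 14 tested ligands, with a median of 0.04. Whether receptors and ligands differ was not tested.

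**Figure D1:**
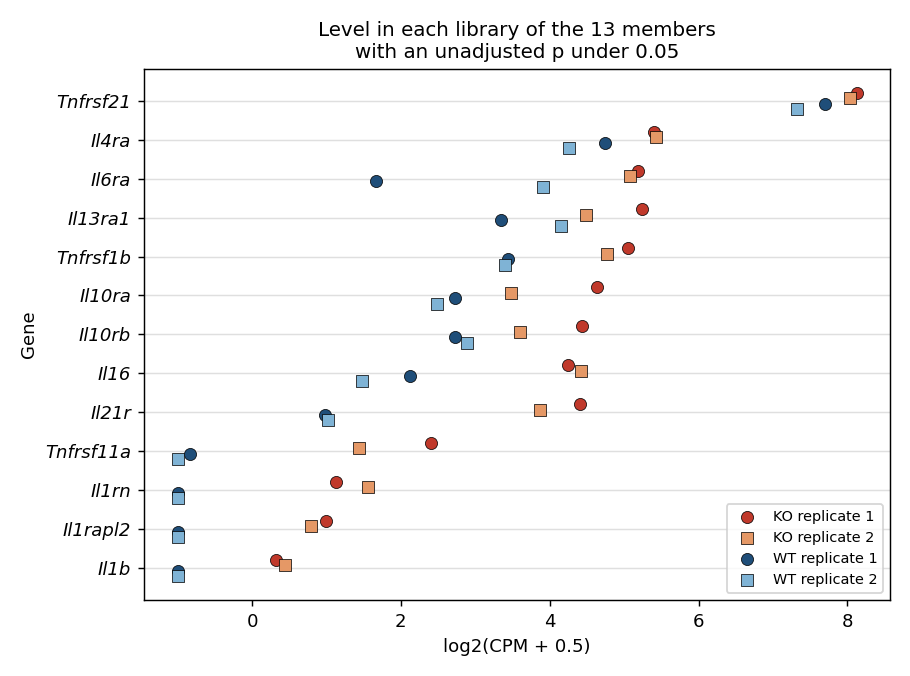
Level of the 13 members with an unadjusted p under 0.05 in each library, as log2(CPM + 0.5), with red for KO and blue for WT, circles for replicate 1 and squares for replicate 2. In all 13 both KO points lie to the right of both WT points, and Il1rn, Il1rapl2 and Il1b sit at the left edge in WT because they had 0 counts there.

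The sequences upstream of the start of 5 of these members are shown. They come from the 7 of the 13 whose RefSeq start lies within 5 bases of the deposited gene end. After their values were seen, the 2 of smallest p among the 7 were taken, Il21r and Tnfrsf1b. The 3 that hold the motif described next were added, Il1b, Il6ra and Il13ra1, so the printed windows were partly chosen for the motif. Each covers the 250 bases before the RefSeq start on GRCm38.p6, read 5′ to 3′ on the strand of the gene. Capitals mark GGAAGT, a core that the myeloid factor PU.1 can bind and that is not specific to it. Where GGAAGT lies on the opposite strand it reads ACTTCC. The windows lie at chr7:125603179-125603428 (plus strand), chr4:145246871-145247120 (minus), chr2:129371140-129371389 (minus), chr3:89913197-89913446 (minus) and chrX:36111858-36112107 (plus).
Il21r: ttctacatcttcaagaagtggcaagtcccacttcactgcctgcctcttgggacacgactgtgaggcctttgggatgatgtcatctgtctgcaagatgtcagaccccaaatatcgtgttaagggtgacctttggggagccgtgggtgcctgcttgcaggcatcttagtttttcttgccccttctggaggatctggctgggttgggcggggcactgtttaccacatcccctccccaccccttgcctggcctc
Tnfrsf1b: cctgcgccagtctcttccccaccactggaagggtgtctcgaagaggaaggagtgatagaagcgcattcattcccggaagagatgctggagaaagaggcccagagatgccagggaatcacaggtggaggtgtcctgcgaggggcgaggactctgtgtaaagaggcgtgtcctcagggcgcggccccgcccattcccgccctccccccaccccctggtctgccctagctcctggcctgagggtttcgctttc
Il1b: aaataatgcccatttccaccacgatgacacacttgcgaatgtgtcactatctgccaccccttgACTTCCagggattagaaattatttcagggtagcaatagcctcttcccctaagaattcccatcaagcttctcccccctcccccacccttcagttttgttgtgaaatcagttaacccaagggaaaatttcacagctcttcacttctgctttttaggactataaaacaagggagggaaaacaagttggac
Il6ra: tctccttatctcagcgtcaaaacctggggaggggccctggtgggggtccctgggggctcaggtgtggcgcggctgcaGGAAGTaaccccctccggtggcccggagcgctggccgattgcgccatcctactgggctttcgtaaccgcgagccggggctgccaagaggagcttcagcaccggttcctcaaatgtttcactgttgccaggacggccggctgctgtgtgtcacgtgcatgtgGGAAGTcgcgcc
Il13ra1: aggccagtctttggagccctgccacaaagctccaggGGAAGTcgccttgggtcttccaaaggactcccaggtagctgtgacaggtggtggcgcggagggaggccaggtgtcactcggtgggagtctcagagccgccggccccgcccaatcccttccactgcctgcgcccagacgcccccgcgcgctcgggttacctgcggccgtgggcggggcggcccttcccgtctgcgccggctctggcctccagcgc
The core occurred 2 times in the Il6ra window, 173 and 12 bases before the start once in Il1b (187 bases) and once in Il13ra1 (214 bases). The windows of Il21r and Tnfrsf1b hold no GGAAGT, and neither do those of Tnfrsf11a and Tnfrsf21, which are not printed, so that 3 of these 7 held it. Of 60 members with a RefSeq promoter entry, 19 held the core, or 31.7%, and of all 32851 promoter windows of this length 19.7% did. Among members whose KO libraries lay above WT it was 7 of 22, and among the other tested members 9 of 24. A match describes the letters and is no evidence of binding.

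The tested receptors of interleukins that share the common gamma chain, and of IL-4 and IL-13, were all above 0 in log2 fold change. These were 5 of 5, where 50.0% of all tested genes were above 0. Their median was 1.14, and Il15ra turned sign without KO replicate 1 or WT replicate 1. Il21r, the IL-21 receptor (ENSMUSG00000030745, chromosome 7, 125603429 to 125633570, plus strand, GRCm38), had 330 and 230 counts in the KO libraries and 25 and 22 in WT. On the CPM scale these were 20.6 and 14.1 in KO and 1.48 and 1.53 in WT. The WT libraries were close, the KO libraries differed 1.46-fold, the groups did not overlap, and the means differed 11.5-fold (log2 fold change 3.52 ± 0.45 SE, unadjusted p = 0.000266, adjusted p = 0.112), the smallest p among the members. Over genes with a mean of at least 5 CPM its adjusted p was 0.0418. Il4ra, the chain shared by the IL-4 and IL-13 receptors, was at 41.9 and 42.7 CPM in KO and 26.3 and 18.7 CPM in WT. Il13ra1, its partner in IL-13 binding, was at 37.2 and 22.01 CPM in KO and 9.66 and 17.2 CPM in WT. Both pairs of libraries were separated, by a smaller margin than for Il21r, with log2 fold changes of 0.91 ± 0.26 and 1.14 ± 0.42 (SE; adjusted p = 0.448 and 0.541). Il2rg, the common gamma chain itself, was low, at 3.12 and 1.53 CPM in KO and 0.948 and 1.04 CPM in WT (log2 fold change 1.22 ± 0.97, adjusted p = 0.846), and 30.5% of its exon bases are shared with another annotated gene. Il15ra had overlapping groups, at 7.81 and 4.72 CPM in KO and 3.32 and 6.47 CPM in WT. Il7r, the IL-7 receptor, was not tested, with 6 and 39 counts in KO, far apart, and 0 in both WT libraries. Its KO mean was 14.4-fold the floor of 3 counts per group. The ligands of these receptors were sparse. Il15 was between 1.04 and 2.33 CPM in the 4 libraries and Il4 between 1.87 and 8.06 CPM, and the groups overlapped for both.

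The IL-10 receptor chains stood in the same direction. Il10ra, the private chain, was at 24.3 and 10.6 CPM in KO and 6.10 and 5.08 CPM in WT. Il10rb, which IL-10 shares with related cytokines, was at 21.2 and 11.6 CPM in KO and 6.10 and 6.88 CPM in WT. Of the exon bases of Il10rb, 14.9% are shared with another annotated gene. In each of these chains the lower KO library lay above both WT libraries, and KO replicate 1 stood apart above KO replicate 2. The log2 fold changes were 1.64 ± 0.50 and 1.33 ± 0.43 (SE; adjusted p = 0.457 and 0.473), and without KO replicate 1 they were 0.93 and 0.84. Il20rb, a chain of the receptors for IL-19, IL-20 and IL-24, had 47 counts in each KO library and 21 and 0 in WT. All 3 tested receptors of the family were separated upwards, where 21.2% of all tested genes were. For Il20rb this rests partly on WT replicate 2 at 0, without which its log2 fold change was 1.22.

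Of the IL-6 and IL-12 family, Il6ra, the IL-6 binding chain (ENSMUSG00000027947, chromosome 3, 89864059 to 89913196), was at 35.9 and 33.2 CPM in KO and at 2.67 and 14.5 CPM in WT. The KO libraries were alike and the WT libraries far apart, so the size of the fold change rests on which WT library is used. Its log2 fold change was 2.01 ± 0.73 (SE, adjusted p = 0.535), which was 3.70 without WT replicate 2, where Il6ra passed (adjusted p = 0.0395), and 1.25 without WT replicate 1. The ligand Il6 itself had 9 counts in KO replicate 1, at most 4 in KO replicate 2 and 0 in WT. Il11ra1, the IL-11 receptor, was among the few members lower in both KO libraries, at 20.3 and 14.7 CPM in KO and 25.3 and 20.6 CPM in WT (log2 fold change -0.39 ± 0.30, adjusted p = 0.838). Over the aligned bases Il11ra1 is 98.9% identical to Gm13305 and 99.0% to an Il11ra2 gene without listed counts. Counts could be split between such copies, so the value of Il11ra1 is uncertain. A further Il11ra2 gene, on the scaffold JH584293.1, had 20 and 15 counts in KO and 2 and 0 in WT. The identity of this gene to Il11ra1 was not recorded, and its value is uncertain as well. Il31ra had 54 and 15 counts in KO and 0 and 11 in WT. The ligand Il12a had 38 counts in KO replicate 1, at most 4 in KO replicate 2 and 0 in both WT libraries, Il27 had 7 counts in KO replicate 2, at most 4 in KO replicate 1 and 0 in WT, and Il11 had 17 in WT replicate 2, and none of these was tested. Il23a had 8 counts in WT replicate 1 and 0 in both KO libraries. Il27ra, the IL-27 receptor, had 12 counts in KO replicate 2, again at most 4 in KO replicate 1 and 0 in WT. Il12rb2 had 6 and 11 counts in KO and 0 in WT, and 40.0% of its exon bases lie opposite Serbp1, a gene with between 7326 and 8022 counts per library.

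IL-1 family genes split by member. Il1b, the inflammatory cytokine IL-1 beta, had 12 and 14 counts in KO and 0 in both WT libraries, with a KO mean 8.38-fold the floor. Il1rn, the secreted antagonist of the same receptor, had 27 and 40 counts in KO and 0 in WT, with a KO mean 21.6-fold the floor. Both had an unadjusted p under 0.05 (0.0306 and 0.00818), did not pass over all genes (adjusted p = 0.515 and 0.383), and passed the filter through KO alone. Il1a was at 4.75 and 3.62 CPM in KO and 1.96 and 1.39 CPM in WT, separated but with an unadjusted p of 0.12. Il18 was the interleukin with the highest level and did not follow them. It was at 40.4 and 38.9 CPM in KO and 39.3 and 55.8 CPM in WT, with overlapping groups (log2 fold change -0.26 ± 0.24 SE, adjusted p = 0.884). Its soluble inhibitor Il18bp was lower in KO, at 2.44 and 2.70 CPM against 3.56 and 4.03 CPM (adjusted p = 0.923). Il33, a nuclear cytokine released by damaged cells, had 39 and 119 counts in KO and 224 and 27 in WT, so the replicates of each group differed more than the group means.

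The receptors of the family lie partly side by side on chromosome 1, between 40074079 (Il1r2) and 40551705 (Il18rap). Il1rl2, the IL-36 receptor, was at 10.2 and 11.7 CPM in KO and 0.830 and 4.59 CPM in WT, separated (log2 fold change 2.01 ± 0.83 SE, adjusted p = 0.606). Il1r1, the signalling IL-1 receptor, had 105 and 28 counts in KO and 106 and 0 in WT. Il1rl1, the IL-33 receptor, had 99 and 19 counts in KO and 20 and 0 in WT, and Il18rap, a chain of the IL-18 receptor, had 20 and 70 in KO and 19 and 0 in WT. In these 3 genes the higher WT library was near or above the lower KO library, and the fold change depends on the WT replicate at 0. Il1rap, the chain shared by the IL-1, IL-33 and IL-36 receptors, was the most abundant of the group, with overlapping groups at 30.2 and 43.2 CPM in KO and 38.2 and 47.6 CPM in WT. Il1rapl1, a synaptic relative on the X chromosome, overlapped as well, at 11.9 and 3.56 CPM in KO and 6.76 and 9.94 CPM in WT. Il1rapl2, the other synaptic relative, had 24 and 20 counts in KO and 0 in WT, with a KO mean 14.2-fold the floor. It passed the filter through KO alone (edgeR, adjusted p = 0.455). Il1r2, the decoy receptor, had 11 counts in KO replicate 1, at most 4 in KO replicate 2 and 0 in WT.

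Il16, a chemoattractant for CD4-bearing cells made from a larger PDZ-domain precursor (ENSMUSG00000001741, chromosome 7, 83642825 to 83745726, minus strand), had the second smallest p. It had 295 and 341 counts in KO and 65 and 33 in WT, or 18.4 and 20.9 CPM against 3.85 and 2.29 CPM. The groups lay far apart, and the log2 fold change was 2.67 ± 0.43 (SE, unadjusted p = 0.000891, adjusted p = 0.17). Exons of other genes on the opposite strand cover 17.4% of its exon bases, among them those of Stard5, which had 298 and 247 counts in KO and 183 and 190 in WT, and no source used here says if counting was strand-specific. Il3ra, the private chain of the IL-3 receptor, was at 5 and 2.76 CPM in KO and 1.54 and 0.904 CPM in WT (adjusted p = 0.691). Il4i1 was between 1.29 and 3.62 CPM with overlapping groups, and 86.3% of its exon bases are shared with neighbouring genes, mainly the antisense Tbc1d17, so its value is uncertain.

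IL-17 receptors did not share a direction. Il17ra, the common signalling chain, was at 44.1 and 29.1 CPM in KO and 22.8 and 5.84 CPM in WT, where WT replicate 2 was 3.91-fold below WT replicate 1 (log2 fold change 1.35 ± 0.63 SE, adjusted p = 0.662; 0.68 without WT replicate 2). Il17rd, known as Sef, an inhibitor of FGF signalling in neural tissue, was lower in KO, at 24.1 and 16.1 CPM against 35.2 and 24.8 CPM (log2 fold change -0.58 ± 0.33, adjusted p = 0.743). Il17rb had 22 and 53 counts in KO and 17 and 5 in WT. Il17rc, the partner of Il17ra, had 30 and 74 counts in KO and 90 and 0 in WT, and its fold change turned sign without WT replicate 2. Il17re had 16 counts in WT replicate 1, at most 4 in WT replicate 2, and 2 and 0 in KO. Of the ligands, Il17d (13 to 28 counts) and Il17f (0 to 33 counts) had overlapping groups, Il17c had 14 counts and Il17b 5 counts in WT replicate 1, and Il25 had at most 4 counts.

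**Figure D2:**
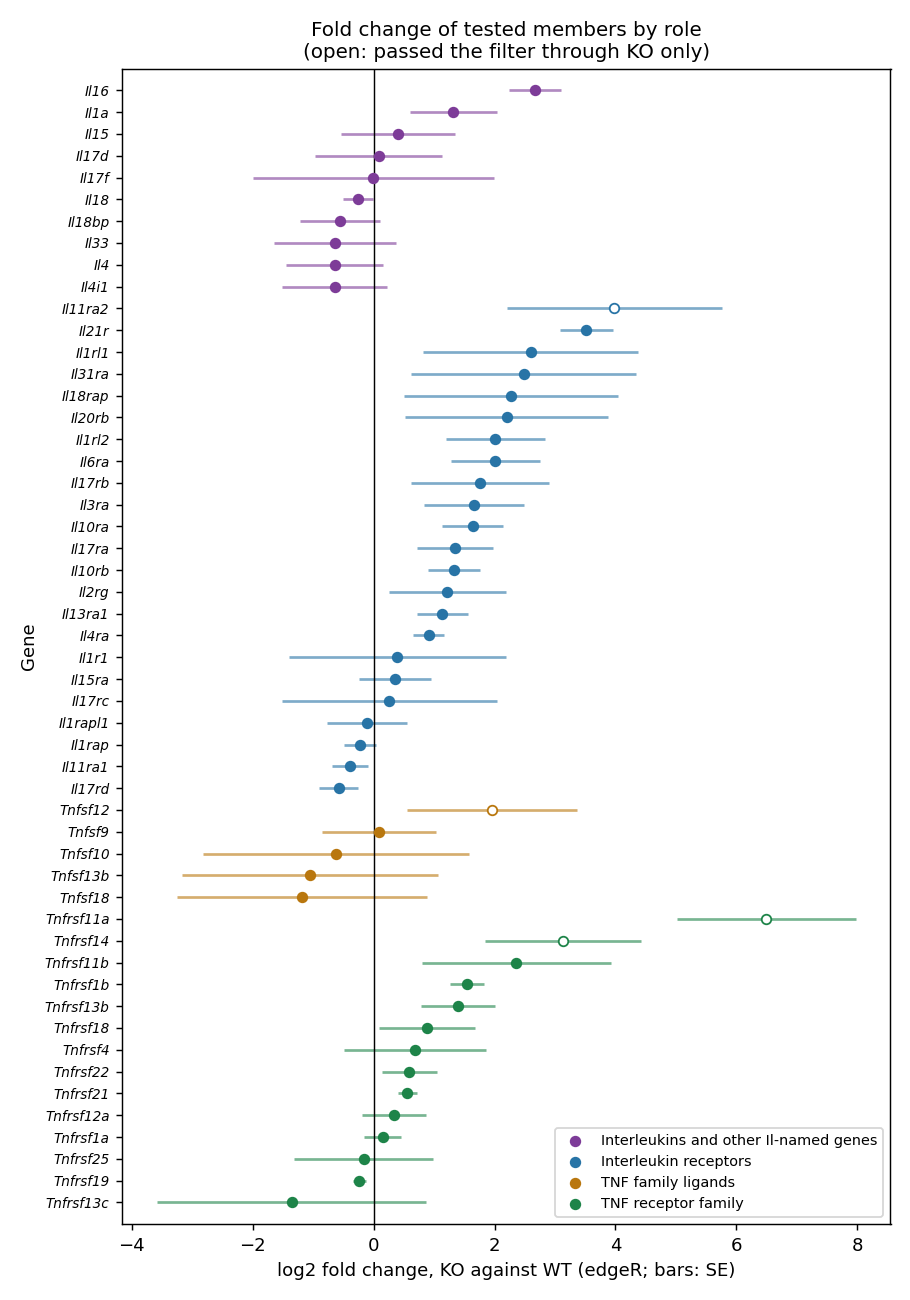
Log2 fold change of KO against WT for 52 tested members, by role, with bars of 1 SE (edgeR); open symbols passed the filter through KO alone, and Il1rn, Il1rapl2 and Il1b are left out because their WT libraries were at 0. Interleukin receptors lie mostly to the right of 0, with Il21r at 3.52, while Il18 and Tnfrsf19 lie close to 0 with short bars.

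In the TNF receptor family the most abundant members were those known from neural cells. Tnfrsf19, called TROY, an orphan receptor of neural progenitors and astrocytes (ENSMUSG00000060548, chromosome 14, 60963834 to 61046855, minus strand), was at 750 and 851 CPM in KO and at 980 and 907 CPM in WT. The groups did not overlap, by a narrow margin, with KO lower (log2 fold change -0.24 ± 0.10 SE, unadjusted p = 0.0659, adjusted p = 0.637). Tnfrsf21, the death receptor DR6, which restrains oligodendrocyte maturation and axon survival, was at 278 and 263 CPM in KO and at 207 and 160 CPM in WT (log2 fold change 0.56 ± 0.16, unadjusted p = 0.0138, adjusted p = 0.448). Markers of the oligodendrocyte lineage summed to 2719 and 2869 CPM in KO and to 2470 and 1928 CPM in WT, and their part in this difference was not tested. Per kilobase of annotated exon, averaged over the libraries, Tnfrsf19 had 184 CPM per kb, Tnfrsf21 55.3 and Il18 42.3, followed at a distance by Tnfrsf1a at 8.72, Tnfrsf13b at 5.92, Il13ra1 at 5.80, Il4ra at 5.40 and Tnfrsf1b at 5.23. The library ranges of Tnfrsf21 and Il18 overlapped, and so did those of each neighbouring pair among the last 5. Only 2 of the 55 tested members reached a mean of 100 CPM and 9 were under 1 CPM, and their median level of 3.18 CPM compares with 18.1 CPM over all tested genes.

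Both TNF receptors were detected, and the KO and WT libraries were separated for Tnfrsf1b and overlapped for Tnfrsf1a. Tnfrsf1b, TNFR2, the receptor without a death domain that is typical of microglia (ENSMUSG00000028599, chromosome 4, 145213463 to 145246870, minus strand), had 525 and 435 counts in KO and 175 and 144 in WT. These were 32.8 and 26.7 CPM against 10.4 and 10.01 CPM, close within each group and 2.92-fold apart between them (log2 fold change 1.54 ± 0.28 SE, unadjusted p = 0.00159, adjusted p = 0.224). Tnfrsf1a, TNFR1, the death-domain receptor found on most cells, was at 29.0 and 18.5 CPM in KO and 22.8 and 20.02 CPM in WT, with overlapping groups (log2 fold change 0.15 ± 0.31, adjusted p = 0.965). The difference between the 2 receptors was not tested. Tnf had 22 and 4 counts in KO and 10 and 0 in WT and was not tested.

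Other receptors that bind TRAF adaptors and were higher in KO included RANK and TACI. Tnfrsf11a, RANK, the receptor of osteoclast and macrophage differentiation, had 77 and 36 counts in KO and 1 and 0 in WT, a ratio of 109 with a counting interval of 19.2 to 4356 (exact, 95%, counting error only; adjusted p = 0.349), and it passed the filter through KO alone. Its ligand Tnfsf11, RANKL, had at most 4 counts in a library. Tnfrsf11b, osteoprotegerin, the soluble decoy of RANKL, had 116 and 93 counts in KO and 42 and 0 in WT. Tnfrsf13b, TACI, a receptor for BAFF and APRIL, was at 26.9 and 21.8 CPM in KO and 3.97 and 14.5 CPM in WT and the WT libraries differed widely (log2 fold change 1.40 ± 0.61, adjusted p = 0.636). Tnfrsf14, the herpesvirus entry mediator, had 21 and 26 counts in KO and 3 and 2 in WT and passed the filter through KO alone. Tnfrsf12a, the TWEAK receptor, was at 7.94 and 7.73 CPM in KO and 8.47 and 3.89 CPM in WT. Its groups overlapped, as did those of Tnfrsf4. Tnfrsf18, GITR, was at 2.75 and 3.74 CPM in KO and 2.19 and 1.32 CPM in WT (edgeR, adjusted p = 0.874). A gene on the opposite strand covers 27.2% of the exon bases of Tnfrsf18. Tnfrsf13c, the BAFF receptor of B cells, had 0 and 13 counts in KO and 1 and 29 in WT. Tnfrsf25, a death-domain receptor, had 8 and 41 counts in KO and 22 and 30 in WT. The mouse decoy receptor gene Tnfrsf22 was at 23.9 and 25.0 CPM in KO and 23.1 and 9.39 CPM in WT, and 766 bases of its transcript are 97.1% to 97.9% identical to several non-coding transcripts, so its value is uncertain. Its neighbours on chromosome 7 were not tested: Tnfrsf26 had 52 and 8 counts in KO and 1 and 0 in WT, and Tnfrsf23 had 0 and 35 counts in KO and 0 and 8 in WT. Also outside the test were Tnfrsf8 (19 counts in KO replicate 1), Tnfrsf17 (15 and 5 counts in KO, 0 and 5 in WT) and Tnfrsf10b, the TRAIL receptor (7 and 11 in KO, 2 and 0 in WT).

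The TNF family ligands were few and varied between replicates. Tnfsf9, 4-1BB ligand, was at 3.50 and 4.97 CPM in KO and 6.87 and 1.04 CPM in WT. Tnfsf10, TRAIL, had 1 and 24 counts in KO and 40 and 0 in WT, Tnfsf13b, BAFF, had 14 and 2 in KO and 35 and 0 in WT, and Tnfsf18, the GITR ligand, had 12 and 4 in KO and 0 and 33 in WT. In these 4 the groups overlapped. Tnfsf12, TWEAK, had 13 and 21 counts in KO and 2 and 6 in WT and passed the filter through KO alone; 48.3% of its exon bases are shared with the readthrough gene Tnfsfm13, as are 60.0% of those of Tnfsf13, which had at most 5 counts. Tnfsf4 had 8 counts in KO replicate 2, at most 4 in KO replicate 1 and 0 in WT. Over the 5 tested ligands the median log2 fold change was -0.63, against 0.00 over all genes. Of the 5, 1 was separated upwards, where 21.2% of all tested genes were.

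WT replicates differed in these genes by more than KO replicates did. The median absolute log2 ratio between the WT libraries was 0.64 over the tested members and 0.39 over all tested genes, and between the KO libraries it was 0.51 and 0.29 (with 0.5 CPM added). In 8 of the 55 tested members WT replicate 2 had 0 counts and WT replicate 1 at least 15, which was so for 3.28% of all tested genes; these were Il1r1, Il17rc, Tnfrsf11b, Tnfsf10, Tnfsf13b, Il20rb, Il1rl1 and Il18rap. The reverse held for Il17f and Tnfsf18, and for 1.75% of all tested genes. At the depth of WT replicate 2 a level of 0.211 CPM could still give no count. The 8 genes at 0 there lay between 1.13 CPM (Il18rap) and 6.28 CPM (Il1r1) in WT replicate 1. WT replicate 2 had the fewest counts of all libraries and the fewest genes detected, 19199 against 20146 in WT replicate 1. Of all tested genes, 973 were at 0 in WT replicate 2 and 618 in WT replicate 1. The part of depth in these zeros was not tested. Between the KO libraries no tested member was at 0 in one and at 15 or more counts in the other, which is near the shares over all tested genes of 1.45% (0 in KO replicate 1) and 0.390% (0 in KO replicate 2). The endothelial markers, which summed to 175 CPM in the first WT library and 67.5 CPM in the second, lay in the same direction as these 8 genes. So did those of the oligodendrocyte lineage (2470 and 1928), astrocytes (6941 and 6520) and ependymal cells and choroid plexus (27.4 and 18.1). Markers of microglia and macrophages (967 and 1384), border macrophages, pericytes and fibroblasts, neurons, lymphocytes, neutrophils and mast cells lay the other way, and blood markers were nearly equal. The part of these cell types was not tested.

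**Figure D3:**
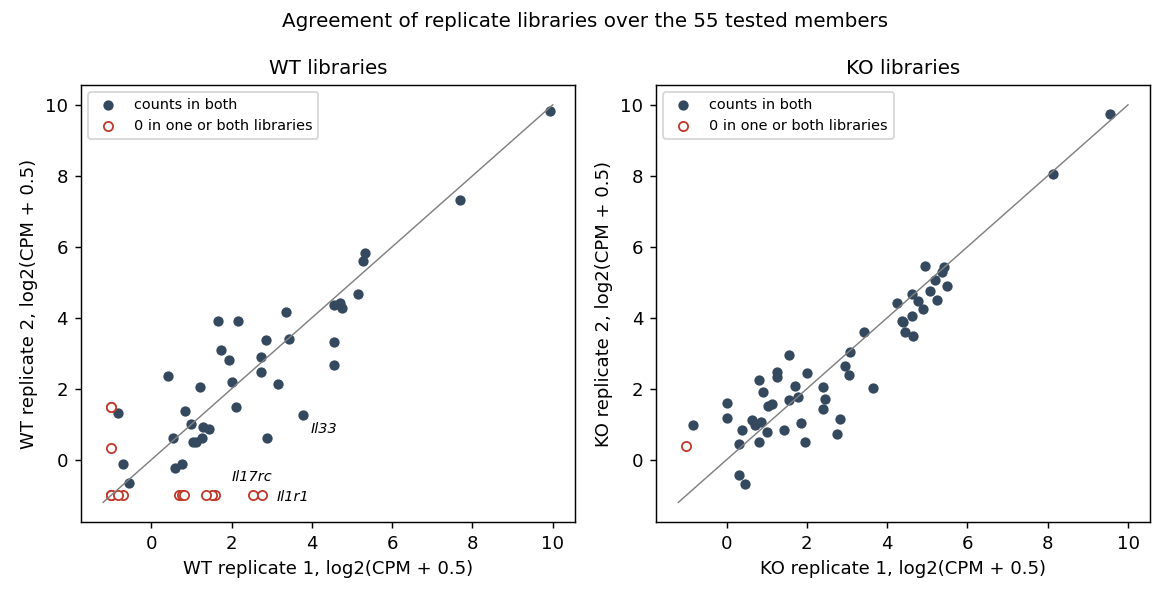
Agreement of the 2 WT libraries (left) and the 2 KO libraries (right) over the 55 tested members, as log2(CPM + 0.5), with the line of equality and open red circles for members at 0 in one or both libraries. The most abundant members lie near the line in both panels, while Il1r1, Il17rc and Il33 stand far below it in WT, with 106, 90 and 224 counts in the first WT library against 0, 0 and 27 in the second.

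Because the microglial markers were higher in KO as well, each member was also expressed per 1000 CPM of their sum in the same library. On this scale 7 of the 55 tested members were separated with KO higher, where 2.01% of all tested genes were, and 24 with KO lower, where 83.4% were. Of the 29 members separated upwards in CPM, 7 stayed so, 13 overlapped and 9 lay lower in KO. Of the 7, 6 had passed the filter through KO alone, and the other was Il21r, at 3.99 and 3.32 in KO and 1.53 and 1.10 in WT. Il16 overlapped, at 3.57 and 4.92 in KO and 3.98 and 1.66 in WT, as did Il6ra, at 6.96 and 7.82 in KO and 2.76 and 10.50 in WT. Tnfrsf1b was lower in KO, at 6.35 and 6.28 against 10.7 and 7.23, and so were Il4ra, Il13ra1 and Il10rb. The scale describes levels relative to the markers and does not say which cells a transcript came from.

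**Figure D4:**
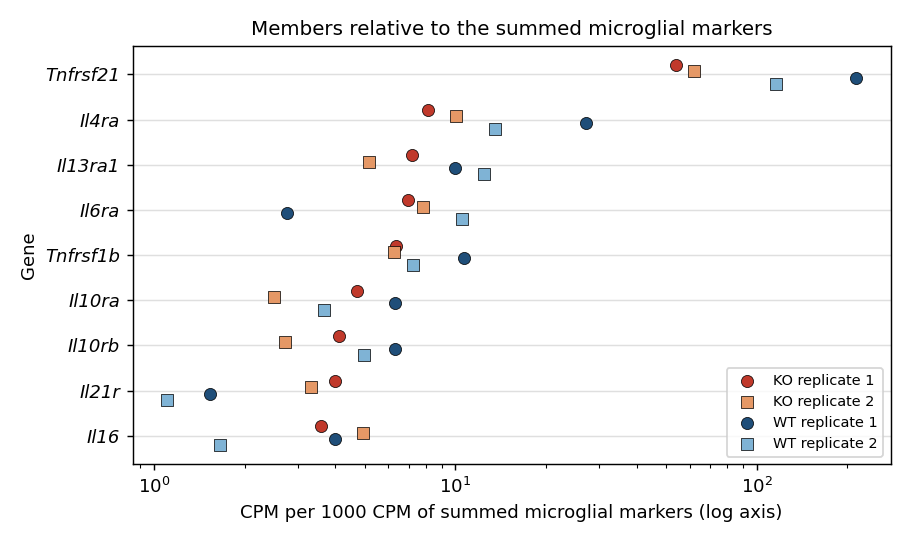
CPM of 9 members per 1000 CPM of the 17 summed microglial markers in the same library, on a log axis; these are the members with an unadjusted p under 0.05 that passed the filter through both groups. Il21r has both KO points, 3.99 and 3.32, to the right of both WT points, while Tnfrsf21, Il4ra, Il13ra1, Tnfrsf1b and Il10rb have both KO points to the left.

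Genes that act below these receptors were read from 5 further lists. No gene of these lists passed over all genes, whereas DESeq2 called 6 of them higher, where it called 1.78% of all tested genes. At an unadjusted p under 0.05, against which the lists are counted here, 5.88% of all tested genes were higher and 2.41% lower. Of the JAK-STAT genes 3 of 15 tested had an unadjusted p under 0.05 higher and 0 lower. Jak3, the kinase bound to the common gamma chain, was at 22.6 and 25.7 CPM in KO and 1.36 and 4.10 CPM in WT (log2 fold change 3.15 ± 0.58 SE, adjusted p = 0.239). Ptpn6, a phosphatase that dampens cytokine receptors, and Stat6, the factor of IL-4 signalling, had log2 fold changes of 2.27 and 1.13, while the abundant Stat3 and Jak1 had 0.28 and 0.05. Of the IL-1 and inflammasome genes 5 of 11 were higher at that p and 0 lower. Gsdmd, the pore-forming gasdermin D, was at 34.4 and 40.5 CPM in KO and 6.87 and 8.41 CPM in WT (log2 fold change 2.29 ± 0.28, adjusted p = 0.103), Irak2 and Myd88 had 1.03 and 1.41, and Tollip, the most abundant, had -0.01. Of the TNF receptor adaptors 3 of 24 were higher at that p and 0 lower. They were Map3k5 (5.24), the apoptosis-initiating kinase ASK1, Tnfaip8l2 (2.72) and Casp8, at 70.9 and 45.3 CPM in KO and 15.5 and 6.33 CPM in WT (2.40 ± 0.49, adjusted p = 0.275), whereas the abundant Traf4 and Adam17 had 0.11 and 0.16. NF-kappaB genes had a median of 0.10, with 1 of 12 higher at that p, Nfkb1 (0.65); Nfkbia, Ikbkg and Ikbkb had 0.47, -0.29 and 0.07.

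TNF family genes under other names were the only one of the 5 lists with members lower at an unadjusted p under 0.05. Of its 10 tested genes 2 were higher and 3 lower at that p, against 5.88% and 2.41% of all tested genes, with a median of -0.05. Edaradd, the adaptor of the ectodysplasin receptor, was at 5.31 and 3.74 CPM in KO and 14.04 and 15.6 CPM in WT (log2 fold change -1.71 ± 0.40 SE, adjusted p = 0.35). The receptor itself, Edar, was at 17.3 and 17.7 CPM in KO and 26.9 and 28.8 CPM in WT (-0.67 ± 0.24, adjusted p = 0.536). Nradd, a death-domain relative of the neurotrophin receptor, was at 17.9 and 23.3 CPM in KO and 34.1 and 30.9 CPM in WT. Ngfr, the neurotrophin receptor p75, was at 12.8 and 9.75 CPM in KO and 4.33 and 3.96 CPM in WT, and Cd40, a receptor of antigen-presenting cells, at 4.81 and 5.46 CPM in KO and 1.54 and 1.39 CPM in WT. Ltbr, the most abundant, had overlapping groups.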

How the data were processed

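The authors deposited 4 tables, each with whole-number counts per gene for 1 KO and 1 WT library, per the file headers; the deposited normalized values, fold changes and p-values were not used. Bowtie2 2.2.3, TopHat2 2.0.12 and HTSeq 0.6.0 are named in the submitters' processing notes, without roles, with the build mm9. However, 21269 of 23475 gene positions, and 63 of the 77 members', were identical to GENCODE M21 on GRCm38, so coordinates are given on GRCm38.

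The tables were joined by gene. A gene was listed where both libraries had a count, or where one had 0 and the other at least 5, so an unlisted count was set to 0 and can be at most 4. Counts were fitted with edgeR 4.0.16 (TMM scaling, filterByExpr with a minimum count of 10, quasi-likelihood test, R 4.3.3) over 17696 genes, and p-values were adjusted by Benjamini-Hochberg and called under 0.05. The design left 2 residual degrees of freedom. Standard errors were derived from each gene's F statistic. CPM use TMM-scaled library sizes, and CPM per kb the union of M21 exons. Where WT had 0 counts, the KO mean was divided by a floor of 3 counts over the WT group. This takes the KO mean without its counting error, so it is not a strict lower bound.

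The members and lists were chosen with earlier results of these data known. The named genes are Tnf, Il1a and Il1b, the 20 tested members of smallest p, the 8 most abundant, the 2 most abundant of each role, and untested members with at least 5 counts; from the other lists, the 3 of smallest p and the 2 most abundant. The remaining members, and Cd40, were added after their values were seen. The labels do not say if replicates are different animals. The p-values therefore reflect only how far these libraries differ, which may be technical. DESeq2 1.42.0, limma-voom (limma 3.58.1), other scalings and filters, the replicate number as a block, and dropping 1 library at a time were tried as alternatives. The fits were tested on simulated data.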

Additional observations from a re-analysis of the deposited data

How the results depend on the processing

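Limits: with 2 libraries a group and a common dispersion of 0.204, a member can differ several-fold without passing over all genes, and most members were sequenced at a few CPM, where 1 library at 0 sets the fitted fold change. DESeq2 called 378 genes, 4 of them members and 6 from the related lists; limma-voom called 28 genes. With no filter edgeR called 56 genes, 1 of them in the related lists (Gsdmd), and over genes with a mean of at least 5 CPM it called 68, with 1 member (Il21r), 1 related gene (Gsdmd) and 13 members separated upwards among fewer tested. At an adjusted p threshold of 0.10 it called 15 genes and still no member. Leaving out each library in turn gave 0 to 42 genes and 0 to 1 members past the threshold (the 1 being Il6ra, without WT replicate 2), 3 to 21 members with an unadjusted p under 0.05 (3 without KO replicate 1, 21 without WT replicate 1), a median from 0.74 to 1.38, 33 to 45 members separated upwards and 0 to 1 related genes (Jak3). With 1 library left in a group, separation is met more easily, and 58 to 65 members were tested there, against 55 in the main fit. The 33 to 45 separated members therefore cannot be compared with the 29 of the main fit, and no share over all genes is given for them. Per summed microglial markers, a scale added after the data were seen, 7 members were separated upwards. RLE and upper-quartile scaling and unlisted counts at their upper limit changed none of these counts by more than 1.5 times.

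With the replicate number as a block edgeR called 4 genes and 0 members, with 14 members at an unadjusted p under 0.05 and a median of 1.15. Same-numbered libraries share only a number, and their deviations from the group means correlated at 0.03.

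No member with an unadjusted p under 0.05 turned sign in log2 fold change under another fit, scaling or filter, the block or a left-out library. In each of them both KO libraries lay above both WT libraries in CPM. Leaving out a library could therefore hardly turn the sign, and no conclusion is drawn from this outcome. Per summed microglial markers, however, Tnfrsf1b, Il4ra, Il13ra1, Il10rb and Tnfrsf21 lay lower in KO. The members whose log2 fold change did turn were far from the threshold. Under limma-voom and the block, Il17f had 2.13 and 1.61, Tnfsf10 0.18 and 0.10, Tnfsf13b 0.24 and 0.22 and Tnfsf18 1.04 and 0.45. Leaving out each library gave ranges of log2 fold change of -0.047 to 0.92 for Il15ra, -0.28 to 0.59 for Il17d, -1.18 to 7.23 for Il17f, -0.73 to 8.65 for Il17rc, -0.49 to 0.013 for Il18, -0.87 to 9.01 for Il1r1, -0.51 to 0.014 for Il1rap, -1.23 to 0.51 for Il1rapl1, -1.64 to 1.37 for Il33, -1.54 to 0.29 for Il4, -0.11 to 1.01 for Tnfrsf12a, -0.21 to 0.43 for Tnfrsf1a, -1.75 to 0.57 for Tnfrsf25, -4.09 to 6.60 for Tnfsf10, -3.002 to 5.98 for Tnfsf13b, -2.19 to 6.05 for Tnfsf18 and -0.70 to 2.02 for Tnfsf9. The cause was not tested.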
